A study of Mus musculus with 4 samples.

Results

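Amino acid synthesis and transport was followed through 32 genes whose products make serine, glycine, asparagine, cysteine and proline, run the folate one-carbon cycle, move amino groups, or carry amino acids across the plasma membrane. The members were chosen by gene name, as given in the annotation of the array. All 32 names were present, with 46 probes, among 30175 gene names and 39429 probes on the array. Probe positions are given in mm9, the build of the array files, which name the gene but not the exon. Each gene is described by its brightest probe, and 12 members had more than 1 probe.

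RNA was taken from NIH-3T3:Per2-Luc, a mouse embryonic fibroblast line that carries a luciferase reporter driven by the *Per2* promoter, so every group shared this reporter. The control received fresh medium and 0 mM H2O2, and its label gives 4 h. The other groups received a cOS-pulse (critical oxidative stress, 5 mM H2O2 for 10 min) and were collected 4 h, 20 h or 32 h after it. Each of the 4 groups was 1 one-color array, all on 1 slide, so no difference has a replicate check and no p-value is given. The same control array served all 3 time points, so at 20 h and 32 h the time after the medium change and the pulse cannot be told apart. The comparisons ask which of these genes were altered early after the pulse, and which differed between the later hours, which the study used to look for circadian change.

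Signals are given as log2 of the processed intensity minus the 75th percentile of the array, so that 0 is the 75th percentile of all probes. A ratio is a difference of such values between arrays, and its error is the spot error of the scanner software (about 0.20 for most members), which does not include the spread between cultures. Probes differ in how well they bind, so the signal of 1 gene was never set against that of another. In RNA from whole cultures, fewer cells of a kind and less RNA per cell cannot be told apart.

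Cells build the non-essential amino acids from intermediates of glycolysis and the citric acid cycle, and import the essential ones through solute carriers. When amino acids run short, or the endoplasmic reticulum or mitochondria are stressed, kinases phosphorylate the initiation factor eIF2alpha, general translation slows and translation of the transcription factor ATF4 increases. ATF4, with C/EBP partners, then binds composite C/EBP-ATF elements at genes for amino acid enzymes, carriers and tRNA synthetases. Cysteine made or imported in this way also feeds glutathione, the main small thiol that cells use against peroxides.

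The promoter windows show where such an element can be read directly. Of the 32 members, 26 had a window in the RefSeq promoter table for GRCm38.p6, which runs from 250 bases before to 50 bases after the start. The core letters TGATGNAA, searched on both strands, were found in the windows of 4 members, *Asns*, *Pycr1*, *Got1* and *Slc1a4*, against 4.51% of the 27025 genes in the table (3.97% of its 32851 promoters). The 4 windows are printed from 150 bases before the start to 9 bases from it, 5′ to 3′ on the strand of the gene, with the match in capitals. All 4 genes lie on the minus strand, at chr6:7693201-7693359 (*Asns*), chr11:120643740-120643898 (*Pycr1*), chr19:43524597-43524755 (*Got1*) and chr11:20332705-20332863 (*Slc1a4*).
Asns: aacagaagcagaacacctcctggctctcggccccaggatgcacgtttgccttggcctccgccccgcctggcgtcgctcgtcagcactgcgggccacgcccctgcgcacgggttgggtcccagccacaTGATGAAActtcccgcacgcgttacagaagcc
Pycr1: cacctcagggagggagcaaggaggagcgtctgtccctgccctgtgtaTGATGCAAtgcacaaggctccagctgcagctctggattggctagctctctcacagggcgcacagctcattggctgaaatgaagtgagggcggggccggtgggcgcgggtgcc
Got1: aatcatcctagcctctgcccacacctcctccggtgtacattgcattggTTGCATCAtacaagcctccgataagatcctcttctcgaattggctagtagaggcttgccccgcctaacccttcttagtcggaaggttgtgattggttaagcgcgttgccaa
Slc1a4: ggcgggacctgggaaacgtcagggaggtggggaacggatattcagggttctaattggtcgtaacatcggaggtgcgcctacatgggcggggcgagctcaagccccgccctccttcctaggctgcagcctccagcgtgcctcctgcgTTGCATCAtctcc
The match began 23 bases before the start in *Asns*, 103 in *Pycr1*, 102 in *Got1* and 4 in *Slc1a4*. In *Got1* and *Slc1a4* the capitals are the reverse complement of the core. At 4 h the log2 ratios of these 4 genes were 1.80, at least 2.68, 0.47 and 0.22 in that order. The same core was thus found in windows of genes above and below the 2-fold threshold. The core of the antioxidant response element (TGACNNNGC) was found in 7 members (*Asns*, *Phgdh*, *Psph*, *Slc38a2*, *Slc6a9*, *Slc7a1* and *Slc7a6*) against 14.0% of genes (12.4% of promoters). The E-box CACGTG was found in 2 members (*Aldh18a1* and *Cbs*) against 8.09% of genes (7.15% of promoters). The 3 motifs did not share a position in any member, and a match is a description of the letters and not of a bound site.

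Between 52.7% and 59.1% of all probes were well above background on an array, the highest share being that of the 4 h array, and no spot was saturated. Of the 32 members, 29 were well above background in the control, 31 at 4 h, 30 at 20 h and 29 at 32 h. All 10 fibroblast markers (such as *Col1a1*, *Vim* and *S100a4*) were well above background on every array. Of 10 markers of other cells, 3 were so in the control, 5 at 4 h, 4 at 20 h and 2 at 32 h, and *Epcam*, *Cdh1*, *Krt18*, *Ptprc* and *Des* were so on none. At 4 h, 9 of the 10 fibroblast markers lay below the control, with a median log2 ratio of -0.60, and *Cd68* and *Cdh5* from the other list were higher by 2.08 and 1.87. The part of these shifts in the results below was not tested.

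Early after the cOS-pulse, at 4 h, the carriers *Slc7a1*, *Slc7a3*, *Slc7a5* and *Slc3a2* were at least 2-fold above the control. So were some enzymes of asparagine, serine, folate, cysteine, proline and branched-chain amino acid metabolism. Other enzymes of these pathways were above the control but short of 2-fold, namely *Phgdh* (log2 0.87), *Aldh18a1* (0.95) and *Cbs* (at least 0.96). The ratios of *Shmt1* (0.11) and *Aldh1l2* (0.20) were within their spot errors, and were below 0 under 5 and 3 of 5 other scalings. *Mthfd1* (-0.30), *Mthfd1l* (-0.22) and *Bcat2* (-1.05) were below the control. In all, 12 members were at least 2-fold higher, against 11.1% of the 18506 gene names with a ratio or bound. They were *Asns*, *Psat1*, *Psph*, *Shmt2*, *Mthfd2*, *Cth*, *Pycr1*, *Bcat1*, *Slc7a1*, *Slc7a3*, *Slc7a5* and *Slc3a2*. Another 2 members, *Bcat2* and *Slc43a2*, were at least 2-fold lower, against 8.26% of all gene names. A ratio was measured for 29 members, 2 (*Cbs* and *Pycr1*) had a bound because the control was not well above background, and *Slc38a4* had neither. The median of the 29 measured log2 ratios was 0.57, beside 0.17 over the 15806 gene names measured in the same way. With bounds included these medians were 0.87 and 0.22. The median of all genes itself moved by -0.12 to -0.40 under other scalings of the arrays. That of the members stood 0.39 above it under this scaling. A scaling that shifts whole arrays moves both medians alike and cannot change this gap. Under settings that can, the gap was 0.51 after quantile normalization, 0.36 with normexp background correction, 0.33 with the median over probes and 0.62 without a filter on dim probes.

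**Figure D1:**
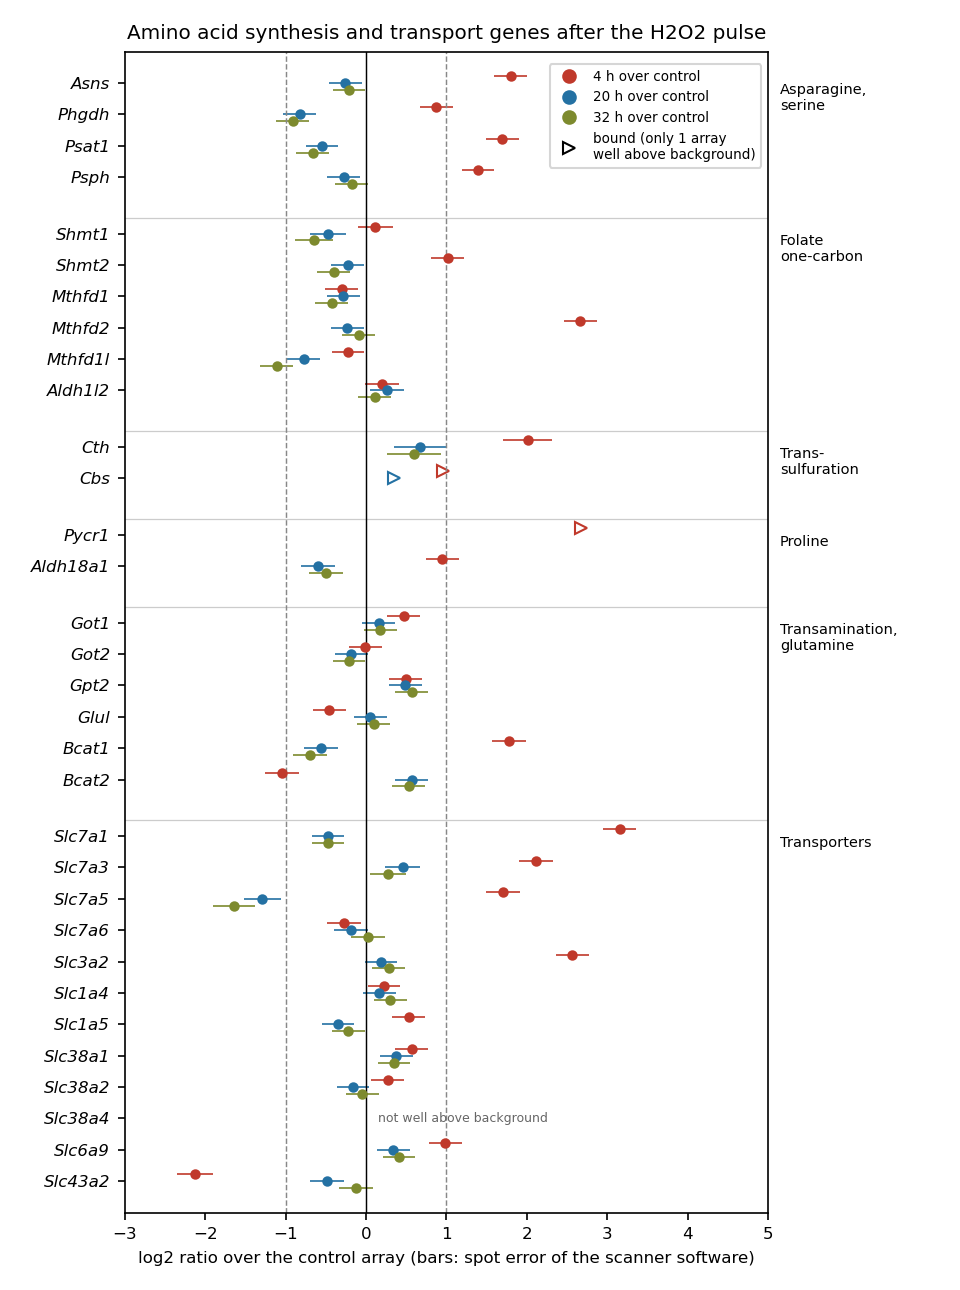
Log2 ratio of each member over the control array at 4 h (red), 20 h (blue) and 32 h (green), grouped by role, 1 array per group. Bars are the spot error of the scanner software, open triangles are bounds, and dashed lines mark 2-fold. At 4 h 12 members lie beyond the right dashed line or have a bound beyond it and 2 beyond the left one, while the blue and green points lie mostly between the lines.

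The measured log2 ratios of the members ran from -2.13 (*Slc43a2*) to 3.15 (*Slc7a1*) at 4 h. From general knowledge 18 members were listed as ATF4 targets, namely *Asns*, *Phgdh*, *Psat1*, *Psph*, *Shmt2*, *Mthfd2*, *Aldh1l2*, *Cth*, *Pycr1*, *Gpt2*, *Slc7a1*, *Slc7a3*, *Slc7a5*, *Slc3a2*, *Slc1a4*, *Slc1a5*, *Slc38a2* and *Slc6a9*. This list was made with earlier results of these data known, so its counts are a description and no independent evidence of its direction. At 4 h 11 of the 18 were higher and none lower, with a median of 1.39 over the 17 measured, where 11.1% of all gene names were higher. Of the other 14 members 1 (*Bcat1*) was higher and 2 were lower, with a median of -0.12 over the 12 measured. The listed genes were not uniform, with *Aldh1l2* at 0.20, *Slc1a4* at 0.22, *Slc38a2* at 0.27, *Gpt2* at 0.50 and *Slc1a5* at 0.53.

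**Figure D2:**
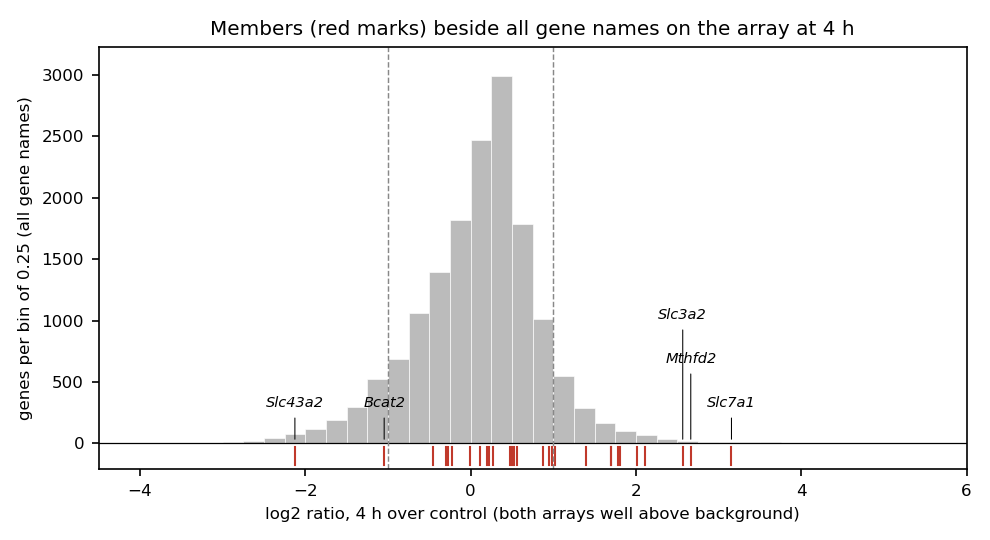
Histogram of log2 ratios, 4 h over control, of all gene names well above background on both arrays (grey, genes per bin of 0.25), with the 29 measured members as red marks under the axis and dashed lines at 2-fold. The marks of *Mthfd2*, *Slc3a2* and *Slc7a1* lie at 2.57 or above, in the thin right edge of the histogram.

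Most genes for asparagine and serine synthesis were high at 4 h and at or below the control later. *Asns*, which makes asparagine from aspartate with glutamine as the nitrogen donor (probe at chr6:7625171-7625228), had a signal of 3.80 in the control, 5.60 at 4 h, 3.54 at 20 h and 3.59 at 32 h. The 4 h array was the only high one, at 3.48-fold over the control (log2 1.80 ± 0.20, spot error), and the other 3 arrays lay within 0.26 of each other. *Psat1*, the aminotransferase of the serine pathway, had 3.29, 4.98, 2.74 and 2.62 in the same order, or 3.24-fold at 4 h. *Psph*, the phosphatase that completes serine, had 1.33, 2.73, 1.06 and 1.16, or 2.63-fold at 4 h. *Phgdh*, the dehydrogenase that commits 3-phosphoglycerate to serine, had 2.51, 3.38, 1.69 and 1.60. Thus the entry enzyme was 1.83-fold higher at 4 h (log2 0.87), below the threshold that the subsequent enzymes passed, and its later arrays lay 0.82 and 0.91 below the control. For the pathway as a whole, 3 of 4 genes passed 2-fold at 4 h and none did later. At 20 h and 32 h all 4 ratios were below 0, but those of *Asns* at 20 h and *Psph* at both times were above 0 without scaling.

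The folate enzymes divided by gene. In this cycle serine gives a one-carbon unit to tetrahydrofolate, in mitochondria through Shmt2, Mthfd2 and Mthfd1l, and in the cytosol through Shmt1 and Mthfd1. *Mthfd2* (probe at chr6:83256518-83256577), the mitochondrial dehydrogenase and cyclohydrolase, had -1.08 in the control, 1.58 at 4 h, -1.32 at 20 h and -1.17 at 32 h. This was 6.33-fold over the control at 4 h (log2 2.66 ± 0.20), while the other 3 arrays differed by 0.23 at most. *Shmt2*, the mitochondrial serine hydroxymethyltransferase, had 2.06, 3.07, 1.83 and 1.65. Its ratio of 1.02 at 4 h sat at the threshold, and was 0.62 to 0.89 under 5 other scalings. *Mthfd1l*, the mitochondrial synthetase that releases formate, followed neither, with 2.10 in the control, 1.87 at 4 h, 1.32 at 20 h and 0.99 at 32 h. Its signal was lowest at 32 h, 2.16-fold under the control (log2 -1.11 ± 0.20), and its other probe gave -1.24. With the spike-in probes or with no scaling this ratio was -0.95 and -0.93, short of 2-fold. *Aldh1l2*, which oxidizes the formyl group of mitochondrial folate, had ratios of 0.20, 0.26 and 0.11 at 4 h, 20 h and 32 h, and the first was below 0 under 3 of 5 other scalings.

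Neither cytosolic folate enzyme passed 2-fold at any time. *Mthfd1* had 1.93 in the control, 1.63 at 4 h, 1.65 at 20 h and 1.5 at 32 h, a span of 0.43 over all 4 arrays. *Shmt1* had -2.19, -2.08, -2.66 and -2.84, and its ratio of 0.11 at 4 h was below 0 under all 5 other scalings. Its other probe gave 0.27, -0.01 and -0.23 at 4 h, 20 h and 32 h, where the brightest gave 0.11, -0.47 and -0.65. The median ratio at 4 h was 0.61 over the 4 mitochondrial enzymes and -0.09 over the 2 cytosolic ones, and the former rests on *Mthfd2* and *Shmt2*.

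Transsulfuration turns homocysteine into cysteine. *Cth*, which cleaves cystathionine to cysteine, was dim but well above background on every array, with -4.15 in the control, -2.14 at 4 h, -3.48 at 20 h and -3.55 at 32 h. The 4 h array was 4.03-fold over the control (log2 2.01 ± 0.30), and the later arrays were above the control by 0.67 and 0.60. Its other probe gave 1.69, 0.62 and 0.23. The 4 h ratio of the brightest probe was 1.61 to 1.89 under 5 other scalings and 1.25 with normexp. *Cbs*, the preceding enzyme, was well above background at 4 h and 20 h only. Under this scaling its 4 h signal was at least 1.95-fold and its 20 h signal at least 1.27-fold above the control. The 4 h bound (log2 0.96) was 0.54 to 0.84 under 5 other scalings and 0.43 with normexp.

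Proline is made from glutamate by Aldh18a1 and then Pycr1. *Aldh18a1* had -1.24 in the control, -0.29 at 4 h, -1.84 at 20 h and -1.74 at 32 h, a ratio of 0.95 at 4 h, just under 2-fold. *Pycr1*, the reductase that forms proline, was well above background at 4 h alone, with -2.08 there and -4.91 in the control, -5.27 at 20 h and -5.26 at 32 h. The 4 h array was at least 6.39-fold over the control under this scaling. On the log2 scale this bound of 2.68 was 2.27 to 2.55 under 5 other scalings and 1.48 with normexp. A second *Pycr1* probe was well above background on none of the arrays.

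The transaminases moved apart. *Bcat1*, the cytosolic branched-chain aminotransferase, had -0.79 in the control, 0.99 at 4 h, -1.35 at 20 h and -1.48 at 32 h. *Bcat2*, the mitochondrial enzyme for the same reaction, had -0.93, -1.98, -0.36 and -0.40. At 4 h *Bcat1* was 3.43-fold higher (log2 1.78 ± 0.20) and *Bcat2* 2.07-fold lower (log2 -1.05 ± 0.21), and at 20 h and 32 h each lay on the other side of the control, with -0.56 and -0.70 for *Bcat1* and 0.57 and 0.53 for *Bcat2*. All 3 *Bcat1* probes gave this shape, with 1.76 to 2.08 at 4 h, -0.74 to -0.56 at 20 h and -0.70 to -0.30 at 32 h. *Bcat2* had 1 probe, and its 4 h ratio was -0.83 after another background correction.

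The aspartate and alanine aminotransferases and glutamine synthetase stayed under 2-fold throughout. *Got1*, the cytosolic aspartate enzyme, had 2.95 in the control, 3.42 at 4 h, 3.11 at 20 h and 3.13 at 32 h. *Got2*, its mitochondrial counterpart, had 2.53, 2.52, 2.35 and 2.32. *Gpt2*, the mitochondrial alanine enzyme, had -1.07, -0.57, -0.58 and -0.50, so that the 3 pulsed arrays lay above the control by 0.49 to 0.57. Under 5 other scalings these ratios were 0.09 to 0.49 at 4 h, 0.48 to 0.82 at 20 h and 0.56 to 0.75 at 32 h, so the levels were alike at the 3 times under this scaling but not under each other one. *Glul*, which makes glutamine from glutamate and ammonia, had -0.04, -0.50, 0.01 and 0.05, with the 4 h array alone low.

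**Figure D3:**
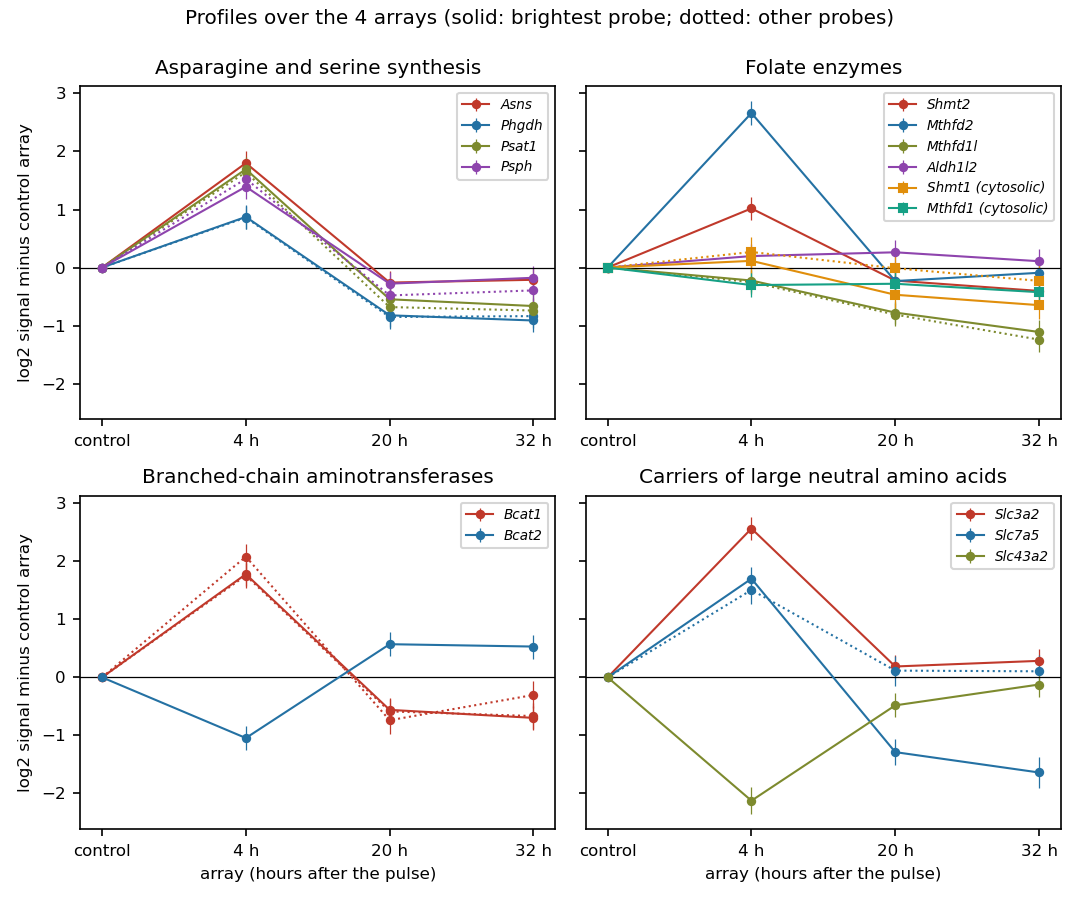
Log2 signal minus that of the control array for 4 sets of members, with the 4 arrays as evenly spaced categories, solid lines for the brightest probe, dotted lines for other probes and bars for the spot error. *Bcat1* and *Bcat2* lie at 1.78 and -1.05 at 4 h and cross before 20 h, and *Slc43a2* lies at -2.13 where *Slc3a2* lies at 2.57.

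The carriers held both extremes of the module. *Slc7a1*, the main carrier of arginine and lysine in many cells (probe at chr5:149139957-149140016), had 2.36 in the control, 5.52 at 4 h, 1.89 at 20 h and 1.89 at 32 h. The 4 h array was 8.91-fold over the control (log2 3.15 ± 0.20), the largest measured ratio of any member. *Slc7a3*, a related cationic carrier, had -2.27, -0.16, -1.82 and -2.0, or 4.33-fold at 4 h. Both cationic carriers were thus high on the 4 h array alone, although their later ratios were -0.47 and -0.47 for *Slc7a1* and 0.46 and 0.27 for *Slc7a3*.

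*Slc3a2* encodes the heavy chain that brings several light-chain carriers, Slc7a5 and Slc7a6 among them, to the plasma membrane. Its probe at chr19:8782189-8782248 had 3.64 in the control, 6.20 at 4 h, 3.82 at 20 h and 3.92 at 32 h, or 5.92-fold at 4 h (log2 2.57 ± 0.20). *Slc7a5*, the light chain that imports leucine and other large neutral amino acids, had -1.76, -0.06, -3.05 and -3.40. Its brightest probe was 3.25-fold higher at 4 h (log2 1.70) and then 2.44-fold lower at 20 h and 3.12-fold lower at 32 h (log2 -1.29 ± 0.23 and -1.64 ± 0.26). The other *Slc7a5* probe, at chr8:124430996-124431055 in mm9 against chr8:124405136-124405195 for the brightest, gave -3.29, -1.78, -3.17 and -3.18. It was high at 4 h as well (1.51), but lay within 0.12 of the control later, so the late decrease was seen with 1 of 2 probes. *Slc7a6*, the light chain that exchanges cationic for neutral amino acids, had -1.26, -1.53, -1.45 and -1.23, with no array at 2-fold. *Slc43a2*, a facilitated carrier for leucine and other large neutral amino acids that needs no heavy chain (probe at chr11:75387219-75387278), had -1.10, -3.23, -1.59 and -1.23. It was low on the 4 h array alone, 4.37-fold under the control (log2 -2.13 ± 0.23).

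None of the 5 remaining carriers of small neutral amino acids that could be measured reached 2-fold. *Slc6a9*, a glycine carrier, came nearest, with 2.24 in the control, 3.23 at 4 h, 2.58 at 20 h and 2.65 at 32 h and a 4 h ratio of 0.98. *Slc1a5*, the glutamine exchanger, had 2.10, 2.63, 1.75 and 1.88. *Slc38a1*, a sodium-coupled glutamine carrier, had 1.70, 2.27, 2.08 and 2.05. All 3 were highest at 4 h. *Slc38a2*, another of that family, had 5.13, 5.40, 4.97 and 5.09, and *Slc1a4*, the alanine, serine and cysteine exchanger, had 0.83, 1.06, 1.0 and 1.13. Their 4 h ratios of 0.27 and 0.22 were below 0 under 4 and 3 of 5 other scalings. *Slc38a4* was well above background on none of the arrays.

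By 20 h nearly all members with a ratio lay within 2-fold of the control. No member was at least 2-fold higher (1.46% of all gene names were) and 1, *Slc7a5*, was at least 2-fold lower (3.56%). At 32 h no member was higher (2.24% of gene names) and 2, *Slc7a5* and *Mthfd1l*, were lower (2.77%). With a 1.5-fold threshold, 1 member was higher and 4 were lower at 20 h (4.57% and 7.79% of gene names). At 32 h these counts were 1 and 6 (6.02% and 7.13%). The median log2 ratio of the 29 measured members was -0.23 at 20 h and -0.12 at 32 h, beside 0.00 over all measured genes at both times. It turned to 0.11 at 20 h without scaling, and at 32 h to 0.03 with the spike-in probes and 0.05 without scaling, as the scaling moved all genes alike. At 20 h, 18 of 30 members with a ratio or bound lay below the control, and at 32 h, 17 of 29. Over all gene names these counts were 8399 of 16963 at 20 h and 8550 of 16894 at 32 h.

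Over the 29 members measured on all 4 arrays, the highest signal was at 4 h in 19, in the control in 4, at 20 h in 2 and at 32 h in 4. Over all 15274 gene names measured on all arrays, 51.4% were highest at 4 h. The 4 members highest in the control were *Mthfd1*, *Mthfd1l*, *Got2* and *Slc43a2*. The lowest signal was at 32 h in 10 members, in the control in 9, at 20 h in 6 and at 4 h in 4 (*Glul*, *Bcat2*, *Slc7a6* and *Slc43a2*).

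Between 20 h and 32 h the members hardly differed. None was at least 2-fold higher at 20 h (0.947% of all gene names were) or lower (2.11%), and the measured log2 ratios ran from -0.36 (*Slc43a2*) to 0.35 (*Slc7a5*) with a median of 0.00. The spot error of these 2 ratios was 0.21 and 0.27. *Mthfd1l* was next at 0.33 ± 0.20, and its other probe gave 0.43. With 1 array at each hour, a rhythm of smaller size was not detectable here. Nor could a rhythm of any size be seen if its phase gave similar levels at 20 h and 32 h.

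Agreement between probes could be checked for 11 of the 12 members with more than 1 probe. At 4 h all 11 gave the same direction with each probe, and their ratios differed by at most 0.33 (*Cth* and *Bcat1*). At 20 h and at 32 h, 9 of 11 did, the exceptions being *Slc7a5*, with gaps of 1.40 and 1.74, and *Slc38a1*, with gaps of 0.65 and 0.61 around ratios under 2-fold. Between 20 h and 32 h 8 of 11 did, the exceptions being *Phgdh*, *Bcat1* and *Slc38a1*, and the largest gap was 0.57 (*Bcat1*, with 0.14 for the brightest probe and -0.44 for another).

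**Figure D4:**
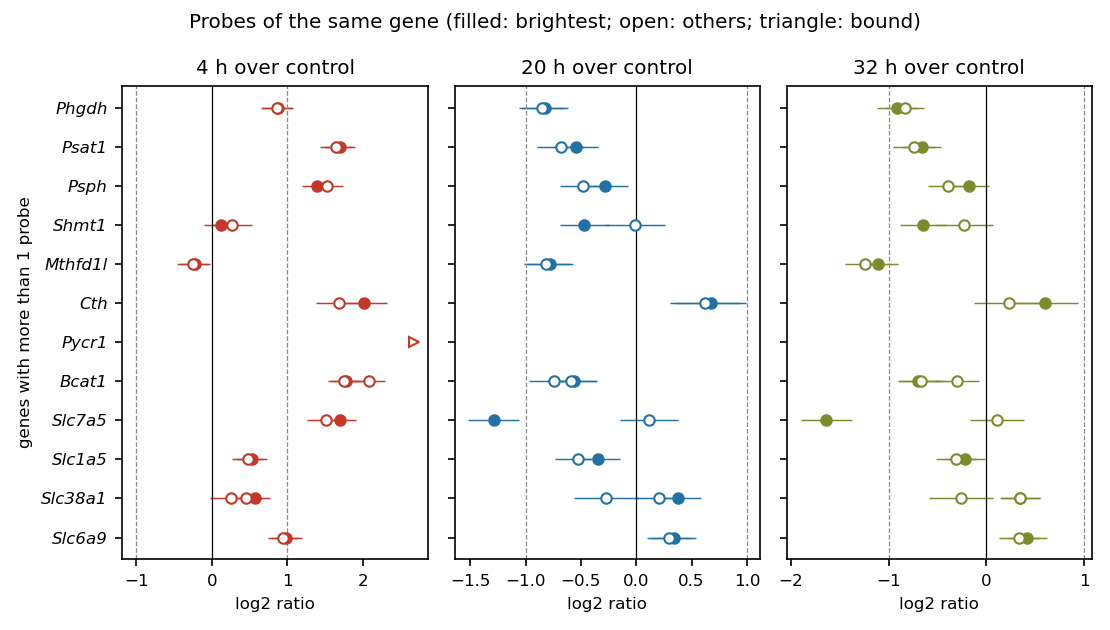
Log2 ratios over the control of each probe for members with more than 1 probe, at 4 h, 20 h and 32 h, with the brightest probe filled, other probes open, bounds as triangles, spot errors as bars and dashed lines at 2-fold. The symbols of a gene lie within 0.33 of each other at 4 h, and those of *Slc7a5* are 1.40 and 1.74 apart at 20 h and 32 h.

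Genes linked to eIF2alpha and ATF4 were measured on the same arrays, and whether they acted on the members was not tested. Of 17 genes of the eIF2alpha and ATF4 pathway, 16 had a ratio at 4 h, 8 were at least 2-fold higher and none lower, with a median of 1.22, beside 11.1% higher, 8.26% lower and a median of 0.17 over all gene names. *Atf4* itself had 6.13 in the control, 7.81 at 4 h, 6.06 at 20 h and 6.09 at 32 h, so it was 3.19-fold higher at 4 h alone, with 1.83 in place of 1.68 on the log2 scale for its other probe. The others past 2-fold were *Trib3* (2.44), *Sesn2* (2.15), *Cebpg* (1.84), *Chac1* (1.83), *Ppp1r15b* (1.67), *Atf5* (1.65) and *Ppp1r15a* (1.58). *Ddit3*, which encodes CHOP, had 0.52, *Nupr1* 0.78, *Ddit4* 0.83 and *Cebpb* 0.85. The 4 genes for kinases of eIF2alpha ran from -0.26 (*Eif2ak2*) to 0.40 (*Eif2ak3*). *Atf3* was well above background on none of the arrays.

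Further genes of amino acid metabolism had a lower median as a list, and the difference was not tested. Of 42 further enzymes, 35 had a ratio or bound at 4 h, of which 4 (11.4%) were at least 2-fold higher and 3 (8.57%) lower, with a median of 0.14 over those measured. These shares and this median were close to the 11.1%, 8.26% and 0.17 of all gene names. *Mthfs*, which returns 5-formyltetrahydrofolate to the cycle, was 3.78-fold lower, and *Aspg*, an asparaginase, was detected at 4 h alone, at least 2.67-fold over the control.

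Of 41 further carriers, 21 had a ratio or bound at 4 h, with a median of 0.22 over those measured. Of the 21, 7 (33.3%) were at least 2-fold higher (4 measured and 3 by a bound) and 3 (14.3%) lower. These shares were 11.1% and 8.26% over all gene names, and 38.7% and 6.45% over the members, so the share higher was near that of the members. *Slc7a11*, the cystine carrier that also pairs with Slc3a2, was well above background at 4 h alone, with 0.26 there and -7.09 in the control, -7.41 at 20 h and -7.00 at 32 h, so the 4 h array was at least 32.4-fold over the control. *Slc7a7*, another partner of Slc3a2, was 3.61-fold higher (log2 1.85 ± 0.28), and *Slc16a10*, an aromatic amino acid carrier, 2.31-fold. *Slc25a12*, the mitochondrial aspartate and glutamate carrier, was 2.97-fold lower. *Slc7a7* and *Slc7a11* were named because they had the largest measured rise and the largest bound at 4 h among these further carriers. They therefore do not show how the partners of Slc3a2 behaved as a set.

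All 20 cytosolic tRNA synthetase genes had a ratio at 4 h, 17 of them above 0, with a median of 0.60. Of all measured gene names, 60.5% were above 0, with a median of 0.17. Of the synthetase genes 4 were at least 2-fold higher and 1 lower, beside 11.1% and 8.26% of all gene names. *Yars* was 3.57-fold and *Nars* 2.49-fold higher, *Aars* and *Gars* were the others past 2-fold, and *Mars* was 2.16-fold lower. At 20 h and 32 h none of the 20 differed by 2-fold.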

How the data were processed

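Total RNA of NIH-3T3:Per2-Luc fibroblasts was labelled with Cy3 and hybridised to 1 slide of 4 Agilent mouse arrays. The authors deposited spot intensities from Agilent Feature Extraction 10.7.3.1 (version per the labels), background-subtracted, with probe positions in mm9, and a table that holds these intensities after division by a single constant for each array. Only the scanner intensities were used for the results, and the deposited table as an alternative.

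Log2 of the processed intensity was averaged over spots without an outlier flag (125 to 161 spots per array had one) and set relative to the array's 75th percentile. A probe was well above background where at least 50% of its spots were. A ratio was measured where both arrays were well above background. Where 1 was, a bound used, for the dim array, either its own signal or that array's lowest signal well above background, whichever was larger. Such a bound holds for the scaling and background correction used. Each gene took its brightest probe by the mean over the 4 arrays, and 2-fold was the threshold. All gene names by the same rule gave the background percentages. With 1 array per group no test was possible, and SAM, named in the study's methods, was not run. The number of arrays limits the precision, and errors are those of the scanner software.

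All 32 members were named, with the genes of the eIF2alpha and ATF4 pathway and at most 4 examples of each other list. These examples were the largest ratios each way and the largest bound (*Aars* and *Gars* were named after their values were seen). Examples that are withheld for evaluation are not reported here. The members and lists were chosen with earlier results of these data known. Motifs were searched in the RefSeq promoter table (GRCm38.p6). Alternatives were 5 scalings, normexp background correction (limma 3.58.1, R 4.3.3, offset 50), dim-probe filters, kept outlier spots, the median over probes, 1.5-fold and 3-fold thresholds and the deposited table, and 1 scaling was added after seeing the data. Recovery of large changes put on bright probes was tested on simulated data. That test did not cover changes near 2-fold, dim probes, bounds or the counts of members. Python 3.11.15, numpy 2.4.6, pandas 2.3.3 and matplotlib 3.10.9 were used.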

Additional observations from a re-analysis of the deposited data

Results flagged for a closer look

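*Slc7a5* moved in opposite directions at different times after the pulse. The log2 ratio of its brightest probe over the control was 1.70 at 4 h, -1.29 at 20 h and -1.64 at 32 h. Each value came from 1 array against the same control array, so the difference between the times was not tested. Its other probe gave 1.51, 0.12 and 0.10, and the cause of the gap between the probes was not tested.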

How the results depend on the processing

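At 4 h the number of members at least 2-fold higher ran from 10 to 13 under the other settings at this threshold. Under these settings the share of all gene names ran from 5.84% (spike-in probes) to 14.2% (no filter on dim probes). At 1.5-fold 16 members were higher, against 24.4% of gene names, and at 3-fold 10, against 4.44%. The median log2 ratio of 0.57 was 0.20 after scaling to the median of all probes, 0.16 with the spike-in probes and 0.29 without scaling, settings that moved all genes alike. The number lower was 1 with normexp (5.01% of gene names), where *Bcat2* had -0.83, and 1 at 3-fold (2.65%). *Shmt2* lost 2-fold under all 5 other scalings, with normexp (0.96) and with the median of all measured genes set to 0 (0.85), a setting chosen after seeing the data. *Psph* had 0.99 with the spike-in probes, and *Cbs* 1.05 without a filter on dim probes. Scaling turned the direction of 4 of 31 members at 4 h (*Shmt1*, *Aldh1l2*, *Slc1a4* and *Slc38a2*), 8 of 30 at 20 h, 4 of 29 at 32 h and 13 of 30 between 20 h and 32 h.

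At 20 h, without scaling, 1 member (*Cth*) was higher (3.41% of all gene names) and 0 were lower (1.90%). The median there was 0.11, with *Slc7a5* at -0.96. With the median over the probes of a gene 0 were lower, against 2.10% of gene names, with *Slc7a5* at -0.59. At 1.5-fold 1 of 30 members was higher (4.57% of gene names) and 4 were lower (7.79%). At 3-fold 0 were lower (1.20%). At 32 h 1 was lower with the spike-in probes (2.02% of gene names), without scaling (1.97%), with the median over probes (1.57%) and at 3-fold (0.876%). With the median over probes *Slc7a5* was at -0.77. At 1.5-fold 1 of 29 members was higher at 32 h (6.02% of gene names) and 6 were lower (7.13%). Other counts and medians stayed within 1.5 times or within the spot error. No paired analysis was possible because each group held 1 array, and no array could be left out for the same reason. Signal over background limits *Cbs*, *Pycr1* and *Slc38a4*.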
